A study of Mus musculus with 6 samples.

Results

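The miRNA genes described here are Mir320, Mir484, Mir877, Mir1224 and Mir3102, whose precursors are known to skip the first cut of the usual miRNA pathway. They were chosen by name, as the rows of the count table whose Ensembl identifier carries one of these names in GENCODE M21, and they are 5 of the 1973 rows. Counts came from small RNA sequencing of exosomes, the small vesicles that cells release into their medium, collected from HN9.10e cells, an immortalized line of mouse embryonic hippocampal neurons. Control exosomes (3 libraries) came from wild-type cells left untreated, and the Cer exosomes (3 libraries) from wild-type cells given 100 nmol/L ceramide, as the cell-permeable short-chain C6-Cer, and in both groups vesicles were taken from the medium after 48 h. Both groups were grown in medium with fetal bovine serum, so the medium may hold bovine vesicles, and one cell line stands for the tissue. The comparison asks whether the exosomal miRNA content differed after Cer treatment.

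Most miRNAs begin as long transcripts from which the nuclear enzyme Drosha cuts a hairpin, and Dicer then cuts the hairpin to the mature miRNA. The precursors of miR-320 and miR-484 are instead short capped transcripts whose own start is the 5′ end of the hairpin, so that no cut by Drosha is needed. Mirtrons are short introns that fold into a hairpin once the spliceosome has removed them and the lariat has been opened, and they join the pathway at Dicer. Of the mirtrons, Mir877 lies in Abcf1, a gene of the ABC family with a role in translation, Mir1224 in Vwa5b2, and Mir3102 in Arhgef17.

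Sequences were taken from RefSeq (GRCm38.p6), which gave a mature sequence for 4 of the 5 genes and a hairpin for 3 of them, and Mir320 is the gene without an entry. The hairpins of Mir484, Mir877 and Mir1224 are shown first, because the ends of the mirtrons are those of an intron and the ends of Mir484 are not. In Mir484 the capitals mark the mature miRNA, and in Mir877 and Mir1224 they mark the first and last 2 bases, which are GU and AG, the letters that end most introns.
Mir484 hairpin: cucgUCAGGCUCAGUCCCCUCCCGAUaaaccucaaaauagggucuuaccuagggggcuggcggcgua
Mir877 hairpin: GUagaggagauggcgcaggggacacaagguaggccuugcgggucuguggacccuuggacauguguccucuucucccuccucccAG
Mir1224 hairpin: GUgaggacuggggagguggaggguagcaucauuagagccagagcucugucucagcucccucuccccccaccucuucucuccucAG

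The mature sequences follow, because the seed (bases 2 to 8, in capitals) decides most target pairing and places a miRNA in its seed family.
mmu-miR-484: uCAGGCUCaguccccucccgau
mmu-miR-877-5p: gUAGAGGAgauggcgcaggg
mmu-miR-877-3p: uGUCCUCUucucccuccuccca
mmu-miR-1224-5p: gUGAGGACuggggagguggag
mmu-miR-1224-3p: cCCCACCUcuucucuccucag
mmu-miR-3102-5p: gUGAGUGGccaggguggggcug
mmu-miR-3102-5p.2-5p: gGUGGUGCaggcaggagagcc
mmu-miR-3102-3p.2-3p: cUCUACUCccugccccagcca
mmu-miR-3102-3p: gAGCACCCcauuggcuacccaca

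No 2 of these 9 mature miRNAs had the same seed. Of the other mature miRNAs in RefSeq, only mmu-miR-702-5p shared a seed with a member, UGAGUGG, which is the seed of mmu-miR-3102-5p. It comes from Mir702, on chromosome 5 and itself a mirtron.
mmu-miR-702-5p: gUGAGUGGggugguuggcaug
The end of an intron is usually preceded by a stretch of C and U. Pyrimidines made up 90.9% of mmu-miR-877-3p, 85.7% of mmu-miR-1224-3p, 76.2% of mmu-miR-3102-3p.2-3p and 56.5% of mmu-miR-3102-3p, and the median over all 731 3p miRNAs of RefSeq was 59.1%. Of the Mir3102 sequences, mmu-miR-3102-3p lies next to the end of the intron, and its value was not above that median. In contrast, mmu-miR-3102-3p.2-3p lies further inside the hairpin, so its value does not describe the intron's end.

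In the annotation (GENCODE M21, GRCm38) the hairpin of Mir320 (ENSMUSG00000065528) lies at chr14:70443510-70443591 on the plus strand. It is outside other genes, and the nearest annotated start of Polr3d, which encodes an RNA polymerase III subunit, is 63 bases away on the opposite strand. Mir484 (ENSMUSG00000070074) lies at chr16:14159626-14159692 on the plus strand and overlaps in part an exon of Marf1 on the opposite strand. Mir877 (ENSMUSG00000077931), at chr17:35960730-35960814 on the minus strand, fills an 85-base intron of Abcf1 from end to end, the intron 12 of 22. Mir1224 (ENSMUSG00000080669), at chr16:20604452-20604536 on the plus strand, fills intron 22 of 22 of Vwa5b2, which also measures 85 bases. Mir3102 (ENSMUSG00000093296), at chr7:100882306-100882409 on the minus strand, fills intron 8 of 20 of Arhgef17 (104 bases) and lies as well inside an exon of another Arhgef17 transcript that keeps the intron. Of the 1894 rows with a position in this annotation, no other overlapped a member or lay within 1000 bases of one. The remaining 79 rows have no position in it. Each row counts a whole hairpin, so 5p and 3p miRNAs share a value, and because the sources used here do not give the use of strand, reads of Mir484 and of the Marf1 exon cannot be told apart.

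The libraries held 800810 to 2760015 counts, and 418 rows passed the filter on low counts, all 5 members among them. Levels are TMM-scaled CPM (a gene's share of the library's counts, scaled to a common total, or normalized CPM). They show neither the number of vesicles nor the RNA per vesicle. Of miRNAs that mark neuronal cells, the Mir9 rows Mir9-2 and Mir9-3 were at 63.7 to 78.4 CPM. The Mir124a rows were present in all 6 libraries at 14.3 to 20.96 CPM, at ranks 333 to 334.5 of the 418 rows. Presence at these levels does not establish the cells' neuronal origin. Libraries with the same replicate number deviated together from their group means. By label, replicate 1 of both groups carried lane number 1, control replicates 2 and 3 number 4 and Cer replicates 2 and 3 number 2. The labels name no run, so libraries with the same lane number need not have shared a lane, and only the replicate 1 pair compares the groups within a lane number.

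The 5 miRNA genes spanned a wide range of levels. Mir320, Mir484 and Mir877 were abundant, at ranks 52, 95 and 100 of the 418 rows by CPM, while Mir3102 stood at rank 250 and Mir1224 at rank 416. Together the 5 took 0.609% ± 0.122 (SD, n = 3) of all counts in control libraries and 0.587% ± 0.128 (SD, n = 3) in Cer libraries. Per 100 bases of hairpin, the mean level fell from Mir320 through Mir484, Mir877 and Mir3102 to Mir1224 in both groups. In controls it was 4070 ± 742 CPM for Mir320, 2460 ± 443 for Mir484, 1055 ± 568 for Mir877, 31.2 ± 5.66 for Mir3102 and 7.12 ± 3.996 for Mir1224 (SD, n = 3), and no neighbours in this order overlapped. In Cer libraries Mir484, at 1596 ± 367 CPM per 100 bases, and Mir877, at 1568 ± 759 (SD, n = 3), overlapped each other, while the other neighbours stayed apart. Without division by hairpin length the Cer mean was 1070 CPM for Mir484 and 1333 CPM for Mir877. The order of Mir484 and Mir877 in Cer libraries thus depends on that division.

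**Figure D1:**
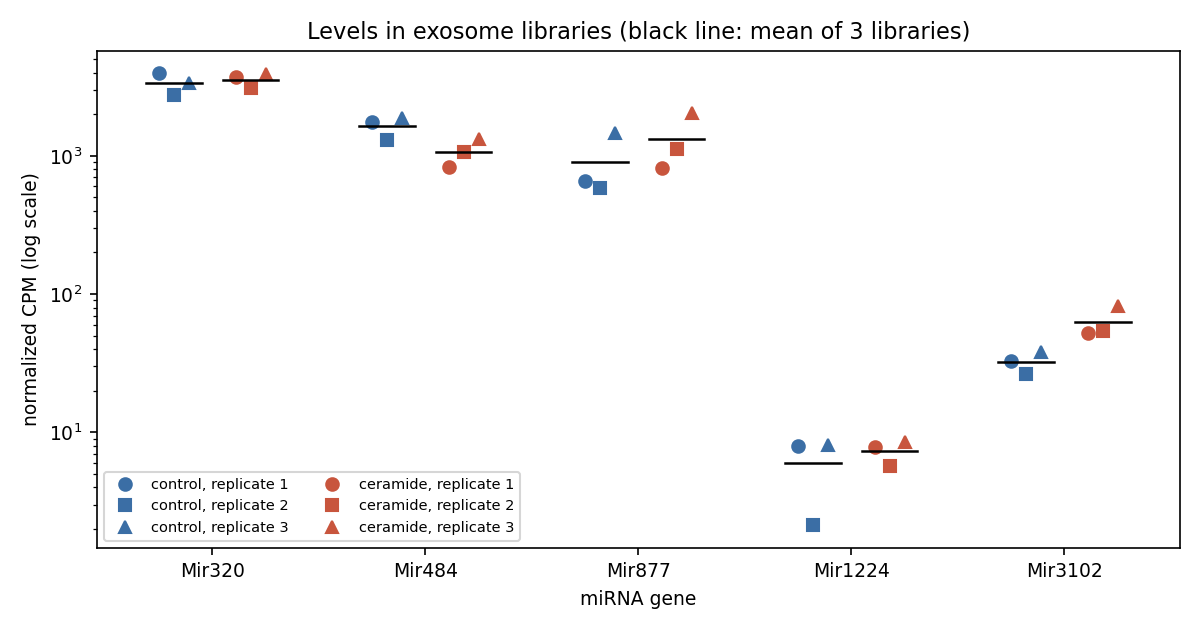
Normalized CPM (log axis) of the 5 miRNA genes in each of the 3 control and 3 ceramide libraries, with replicates 1, 2 and 3 as circles, squares and triangles and a black line at each mean. Only Mir3102 has all ceramide libraries above all control libraries, and replicate 3 stands highest for Mir877 in both groups.

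Of the 5 members, 1 passed the test between Cer and control, Mir3102, which was higher. The call required an adjusted p of at most 0.05 (edgeR's quasi-likelihood test, Benjamini-Hochberg over the 418 rows) and a log2 fold change of at least 0.6 in either direction. Of all tested rows, 11.5% were called, and 3.11% were called higher. Mir3102 was also the only member whose groups did not overlap, a property of 39.2% of the tested rows.

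Mir3102, the Arhgef17 mirtron with 4 annotated mature miRNAs, had 32.9, 26.3 and 38.1 CPM in control replicates 1, 2 and 3 and 52.0, 54.5 and 81.7 CPM in Cer replicates 1, 2 and 3. The lowest Cer library was above the highest control library. The means were 32.4 ± 5.89 and 62.8 ± 16.5 CPM (SD, n = 3), from 33 to 52 counts in a control library and 40 to 192 in a Cer library. The fitted log2 fold change was 0.97 (SE 0.23, 95% interval 0.41 to 1.53), with an adjusted p of 0.0344 in edgeR's test. Within replicate numbers 1, 2 and 3 the log2 fold was 0.66, 1.05 and 1.10, so that the rise was present in every pair. The call was lost when control replicate 1 (log2 fold change 0.98, adjusted p = 0.107), control replicate 2 (0.86, adjusted p = 0.0955) or Cer replicate 2 (1.06, adjusted p = 0.0608) was left out of edgeR's fit. It was kept without control replicate 3 (1.11, adjusted p = 0.0478), Cer replicate 1 (1.05, adjusted p = 0.0295) or Cer replicate 3 (0.73, adjusted p = 0.0489). DESeq2 (1.00, adjusted p = 0.0208) and limma-voom (0.96, adjusted p = 0.0337) also called the row. With the replicate number as a block the change was 0.99 (adjusted p = 0.00183), in a fit that called 20.8% of all rows. With the lane number as a term the log2 fold change was 0.66 with an adjusted p of 0.536.

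Mir484, the member with a single annotated mature miRNA, was the one whose fitted change was negative. It had 1764, 1310 and 1869 CPM in control replicates 1, 2 and 3 and 826, 1064 and 1319 CPM in Cer replicates 1, 2 and 3. The groups touched at one point, since Cer replicate 3 lay just above control replicate 2. The means were 1648 ± 297 and 1070 ± 246 CPM (SD, n = 3), and the log2 fold change was -0.62 (SE 0.20, 95% interval -1.10 to -0.14). The adjusted p of edgeR's test was 0.0721, which missed the threshold, and DESeq2 gave an adjusted p of 0.0212 at a log2 fold change of -0.59, just under the fold threshold. With the replicate number as a block the same change of -0.62 (SE 0.15) had an adjusted p of 0.0210 and was called lower, in a fit that called 20.8% of all rows. The log2 fold within replicate numbers 1, 2 and 3 was -1.09, -0.30 and -0.50. Without Cer replicate 3 the row was also called, at -0.79 (adjusted p = 0.0381). Leaving out any other single library gave no call, with changes of -0.74 to -0.49 and adjusted p of 0.0759 to 0.193. Limma-voom did not call the row (-0.61, adjusted p = 0.0718). With the lane number as a term the change was -1.09 (adjusted p = 0.133).

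Mir320, the most abundant of the 5, showed no change that could be separated from replicate error. Its level was 3946, 2730 and 3336 CPM in control replicates 1, 2 and 3 and 3686, 3066 and 3899 CPM in Cer replicates 1, 2 and 3. Both groups covered nearly the same range, and the highest value of all was in a control library. The log2 fold change was 0.09 (SE 0.16), and its 95% interval of -0.28 to 0.46 did not reach the threshold of 0.6 in either direction. The adjusted p was 0.682 in edgeR's test and 0.344 with the replicate block.

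Mir877, the Abcf1 mirtron, varied more within each group than between them. Its level was 654, 584 and 1453 CPM in control replicates 1, 2 and 3 and 816, 1127 and 2056 CPM in Cer replicates 1, 2 and 3. Replicate 3 was the highest library of either group, and control replicate 3 exceeded Cer replicates 1 and 2. The log2 fold change was 0.57 (SE 0.45, 95% interval -0.49 to 1.64) with an adjusted p of 0.378. Within replicate numbers 1, 2 and 3 the Cer library was higher each time, by 0.32, 0.95 and 0.50 on the log2 scale. With the replicate block the standard error fell to 0.13 and the adjusted p to 0.0126, and the fitted change of 0.596 stayed just under the threshold of 0.6, so the row was not called. Single libraries moved the estimate by more than 1.5 times: it was 1.12 (adjusted p = 0.1195) without control replicate 3, 0.37 (adjusted p = 0.662) without control replicate 2 and 0.12 (adjusted p = 0.858) without Cer replicate 3. With the lane number as a term it was 0.32 (adjusted p = 0.906).

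Mir1224, the Vwa5b2 mirtron, was close to the limit of detection. It had 8, 3 and 11 counts in control replicates 1, 2 and 3 and 6, 15 and 20 counts in Cer replicates 1, 2 and 3, or 7.98, 2.13 and 8.05 CPM and 7.80, 5.68 and 8.52 CPM. Apart from control replicate 2, whose 3 counts have a 95% exact Poisson interval of 0.440 to 6.23 CPM (counting error only), the libraries lay between 5.68 and 8.52 CPM, and the groups overlapped. The log2 fold change was 0.29 (SE 0.46, 95% interval -0.80 to 1.37, adjusted p = 0.658). A change of the size fitted for Mir3102 lies inside this interval.

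**Figure D2:**
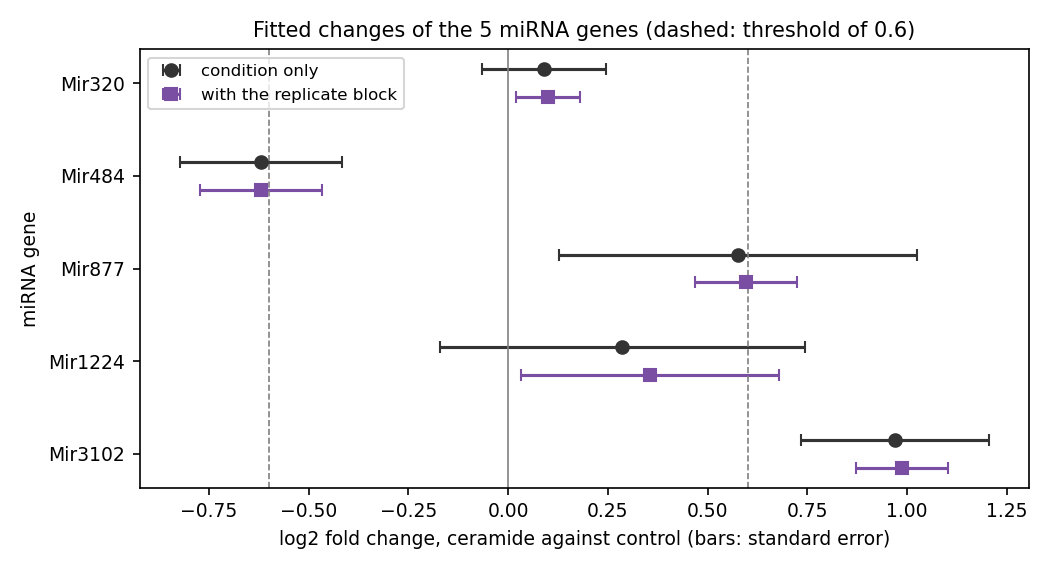
Fitted log2 fold changes of the 5 miRNA genes (horizontal axis, ceramide against control) with standard errors as bars, from the fit on condition alone (circles) and with the replicate number as a block (squares). The block leaves most estimates almost in place (Mir877 0.57 and 0.596, Mir484 -0.62 in both), moves Mir1224 from 0.29 to 0.36 and narrows each error.

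Ratios of members within a library do not depend on the scaling between libraries, and those with Mir484 were apart between the groups for every other member. The log2 ratio of Mir484 to Mir3102 counts was 5.74, 5.64 and 5.62 in control replicates 1, 2 and 3 and 3.99, 4.29 and 4.01 in Cer replicates 1, 2 and 3. The values were tight within each group and far apart between them, 5.67 ± 0.0673 against 4.10 ± 0.165 (SD, n = 3), a difference of -1.57. The ratio of Mir484 to Mir877 went from 0.99 ± 0.556 to -0.24 ± 0.355 (SD, n = 3), a difference of -1.22, although Mir877 alone varied so widely. Within replicate numbers 1, 2 and 3 that ratio was lower in the Cer library by -1.41, -1.25 and -1.004. The ratio of Mir484 to Mir1224 differed by -1.12 between the groups, and that of Mir320 to Mir484, both from capped precursors, by 0.73. The ratio of Mir320 to Mir3102 differed by -0.84, with replicate pairs at -0.76, -0.88 and -0.88.

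Of the 10 pairs of members, 5 had groups that did not overlap, and these include all 4 pairs with Mir484. Over all 87153 pairs of tested rows (with 0.5 added to each count) the share was 37.7%, and over the 417 pairs of Mir484 with every other tested row it was 39.6%. The same share was 69.8% for Mir3102, 25.4% for Mir320, 12% for Mir1224 and 6.24% for Mir877. Groups apart in a pair with Mir3102 were thus the usual outcome for that row. Each of the 5 had the smallest p that an exact two-sided permutation test of 3 against 3 libraries can give, 0.1, and after Benjamini-Hochberg adjustment over the 10 pairs the value was 0.2. No pair therefore passed a threshold of 0.05, which the design cannot reach. Pairs that share a member are not independent of each other. The other 5 pairs overlapped, among them all 3 pairs between mirtrons: the ratio of Mir877 to Mir3102 was 4.68 ± 0.504 in control and 4.33 ± 0.341 in Cer libraries (SD, n = 3, exact permutation p = 0.5).

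**Figure D3:**
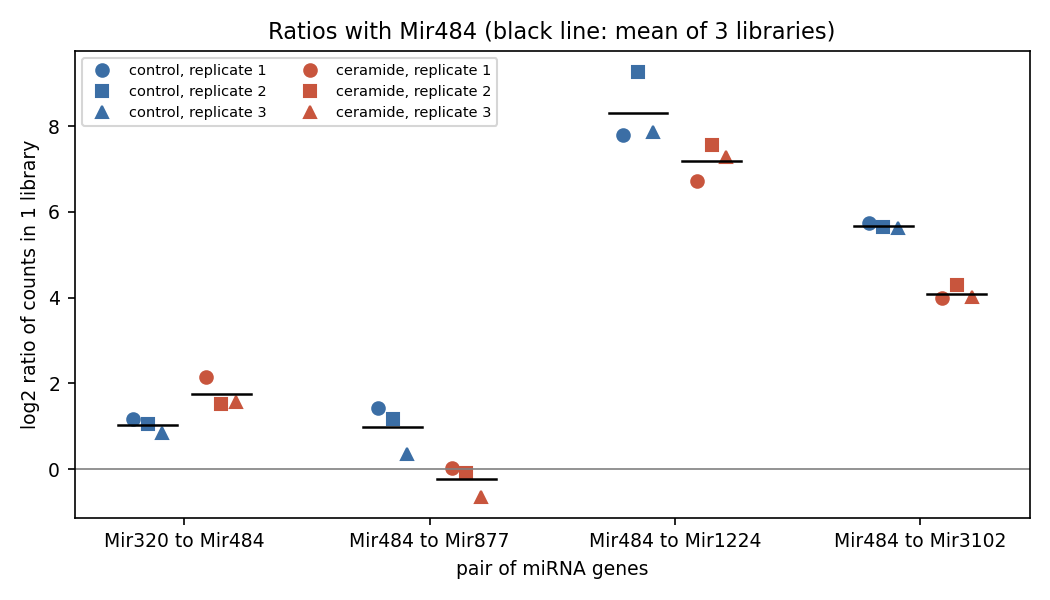
Log2 ratio of counts within each library for the 4 pairs that contain Mir484, with control libraries on the left and ceramide libraries on the right of each pair and black lines at the means. In all 4 pairs the groups are apart, most widely for Mir484 to Mir3102 (5.67 against 4.10).

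To see whether other mirtrons behaved like these, rows were searched for a hairpin with both ends within 10 bases of the ends of an annotated intron on the same strand. The search covered the 1894 of 1973 rows that have a position in GENCODE M21, and the other 79 rows could not be searched. The search found 29 rows, including Mir877, Mir1224 and Mir3102, and not Mir320 or Mir484. In 21 of the 29 hairpins (72.4%) the sequence began with GU and ended with AG, compared with 20 of the 1865 other hairpins (1.07%). Of the 5p mature miRNAs of these rows in RefSeq, 10 of 26 began with GUGAG, the start shared by many introns, and so did 14 of all 727 5p miRNAs, the 10 included. Rows found by their intron ends tend to carry these letters, so the shares are no separate support for calling them mirtrons. Of the 29 rows, 20 passed the filter on low counts, 17 of them apart from the members.

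The 17 other mirtrons tended to higher values in Cer libraries, but none of them was called. Their fitted log2 fold changes ran from -0.06 (Gm24589) to 1.22 (Mir1231), 16 of 17 were positive, and the median was 0.57, beside -0.01 over all 418 rows, of which 206 were positive. The filter on low counts can keep a row on the counts of a single group. Mir1231 had 5.99, 3.56 and 16.8 CPM in control replicates 1, 2 and 3 and 14.3, 19.7 and 26.4 CPM in Cer replicates 1, 2 and 3. With no filter, 21 of 26 other mirtrons were positive, with a median of 0.53, beside 542 of 1058 rows. In edgeR's test the lowest adjusted p among the 17 was 0.126, and 1 of them had an unadjusted p under 0.05. DESeq2 and limma-voom called none of them either. In 15 of the 17 the Cer library was above the control library of the same number in all 3 pairs, as was the case for 146 of the 418 rows. With the replicate block, 8 of the 17 were called higher (Mir7018, Mir1231, Mir6923, Mir7082, Mir3062, Mir6958, Mir7070 and Mir7060), in a fit that called 9.09% of all rows higher. These rows are of one kind by position, but their hosts are different genes. They were measured in the same libraries, so the rows are not independent replicates of the treatment.

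Their levels moved with the replicate number as Mir877 did. The most abundant, Mir6923, had 352, 264 and 883 CPM in control replicates 1, 2 and 3 and 413, 580 and 1302 CPM in Cer replicates 1, 2 and 3. Mir1981 had 382, 392 and 773 CPM in control and 490, 624 and 1100 CPM in Cer replicates 1, 2 and 3. Replicate 3 was the highest library of both groups in 15 of the 17 rows (88.2%), compared with 114 of all 418 (27.3%). Summed over the 17, the level was 1325, 1389 and 3003 CPM in control replicates 1, 2 and 3 and 1684, 2314 and 4265 CPM in Cer replicates 1, 2 and 3. The sums overlapped, at 1906 ± 951 and 2754 ± 1346 CPM (SD, n = 3, exact permutation p = 0.5).

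Leaving out a replicate 3 library from one group and not the other moved the median over the 17: it was 0.14 without Cer replicate 3 and, over the 18 rows then tested, 0.95 without control replicate 3. Without both, as an alternative chosen after seeing the data, it was 0.63 over the 16 rows then tested, close to the 0.57 of all libraries, and Mir1231 was called. With the lane number as a term it was 0.36 over the 17. Mirtron hairpins are rich in G and C, with a median of 63.2% over the 20 tested against 49.4% over all 418 rows. Across the 418 rows, which share the same libraries, hairpin GC content had a Pearson r of 0.31 with the excess of control replicate 3 over the other controls and of 0.36 with that of Cer replicate 3, and of 0.09 with the log2 fold change. Over the 398 rows without the mirtrons these values were 0.23, 0.29 and 0.02. The 125 other tested rows in the GC range of the mirtrons had a median log2 fold change of -0.03, and 59 of them were positive. What set replicate 3 apart was not tested.

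**Figure D4:**
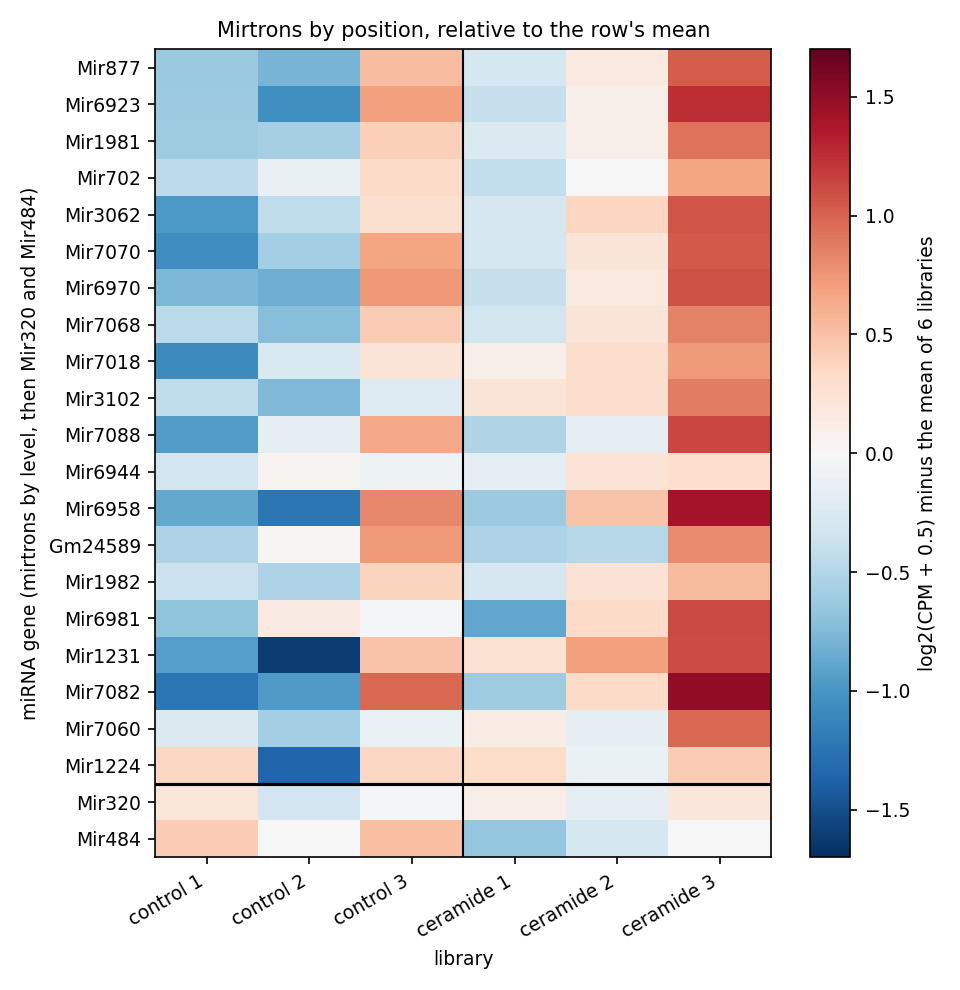
Each row is a tested mirtron by position (20 rows, ordered by level) or, under the line, Mir320 and Mir484, and each column a library. Color gives log2(CPM + 0.5) minus the row's mean over the 6 libraries. Most mirtrons are highest in replicate 3 of either group and higher in the ceramide library of a pair, while Mir484 is lowest in ceramide replicate 1.

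Of 5 other miRNAs listed for their unusual biogenesis, 3 had a row under that name in GENCODE M21, and none of these was called. Mir451a, whose hairpin is cut by Ago2 rather than Dicer and which is abundant in red blood cells and serum, was at 36.8 ± 7.07 CPM in control and 37.6 ± 3.86 CPM in Cer libraries (SD, n = 3), with a log2 fold change of 0.01 (SE 0.18). Mir702, the mirtron that shares a seed with mmu-miR-3102-5p, had 214 ± 58.2 and 246 ± 96.1 CPM (SD, n = 3) and a log2 fold change of 0.21 (SE 0.31). The seed is thus carried by a row that was called and by one that was not, and the difference between the 2 changes was not tested. Mir1981, also in the list of mirtrons by position, had a log2 fold change of 0.52 (SE 0.38).

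The rows most like each member over the 6 libraries, by Pearson r of log2 CPM and given as a description, were mostly rows outside the lists above. For Mir320 they were Mir671 (r = 0.93) and Mir423 (0.89), and for Mir484 they were Mir485 (0.99) and Mir326 (0.98). Mir877 was closest to Mir6418 (0.997) and to the mirtron Mir6923 (0.99). Mir3102 was closest to Mir466b-3 (0.97) and Mir5114 (0.96), and Mir1224 to Mir466n (0.98) and Mir6946 (0.94), from few counts. With deviations from the group means in place of the levels, the first of the pair stayed the same for every member except Mir3102, which was then closest to Mir744 (0.98). Among the members themselves Mir877 and Mir3102 had an r of 0.79, and Mir484 and Mir3102 one of -0.41.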

How the data were processed

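Exosomal small RNA of 6 libraries was analysed, 3 per group, grouped by the labels. Per the submitters' processing notes and the study's methods, the authors trimmed reads with cutadapt 1.15, aligned them to GRCm38 with STAR 2.5.3a, assigned them to miRNA genes of GENCODE and deposited raw counts per gene. The annotation release and the handling of strand, of reads with several alignments and of molecular identifiers are not given in the sources used here. Counts may therefore stand for reads or for molecules. The exact Poisson interval given for Mir1224 covers counting error only. Intervals of fold changes come from edgeR's fit and include the spread between libraries. The study calls its replicates biological, and the labels do not say that they are separate cultures, so p-values measure the spread between these libraries.

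Counts were fitted with edgeR 4.0.16 (R 4.3.3) by its quasi-likelihood test, with TMM, filterByExpr, condition as the only term and Benjamini-Hochberg adjustment over the 418 rows tested. Standard errors come from the F statistic. DESeq2 1.42.0, limma-voom 3.58.1, other scalings and filters, the lane, the replicate block and leaving out each library were alternatives. Replicate numbers from the labels were taken to pair the libraries, since deviations from group means correlated within numbers (r = 0.59, 0.43 and 0.75 for replicates 1, 2 and 3) and by -0.59 to 0.10 between them. Deviations from a group mean cancel out within the group, so the values between numbers are tied to those within them. The ground for pairing came from the same data as the fit with the replicate block. Named were the members, the tested rows of the lists and the 2 rows most like each member. The members and lists were chosen with earlier results of these data known. Scripts were tested on simulated data.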

Additional observations from a re-analysis of the deposited data

How the results depend on the processing

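The 48 rows called became 87 with the replicate block, 29 with the lane as a term and 83 by adjusted p alone. The 13 rows called higher became 21 with DESeq2's size factors in edgeR and 23 with upper-quartile factors (beside 26 and 28 lower, where TMM gave 35), 4 with the library size alone (42 lower), 5 with no filter, 38 with the replicate block, 8 with the lane term and 30 by adjusted p alone. The 1 member called became 0 with the library size alone, with no filter and with the lane term, and 2 (Mir484 and Mir3102) with the replicate block. In those fits without a call, Mir3102 stayed above the fold threshold and missed the adjusted p of 0.05 in edgeR's test. Its log2 fold change was 0.89 with the library size alone (adjusted p = 0.0511), 0.95 with no filter (0.0520) and 0.66 with the lane (0.536). Mir484 passed both thresholds at -0.62 with the replicate block, which changed no other call among the members. Under the lane term, which rests on 1 pair of libraries with the same lane number and 2 residual degrees of freedom, Mir320 turned to -0.10 and Mir1224 to -0.034. Leaving out 1 library at a time gave 28 to 55 rows called, 3 to 14 called higher and 0 to 2 members called. The log2 fold change then ran from 0.73 to 1.11 for Mir3102, -0.79 to -0.49 for Mir484, 0.12 to 1.12 for Mir877, -0.014 to 0.23 for Mir320 and -0.13 to 0.62 for Mir1224, the last 2 turning negative without control replicate 2. The mirtrons by position became 23 rows, 17 tested and 16 positive, with ends within 5 bases. The causes were not tested. Fewer than 20 counts in most libraries limit Mir1224, for which DESeq2 gave no adjusted p.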

Other observations

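The 9 mirtrons by position that did not pass the filter on low counts held 3 to 96 counts over the 6 libraries. The mean CPM of 5 of them was higher in Cer libraries and that of the other 4 was not. Mir7032, the one with the most counts, had 0.998, 2.84 and 11.0 CPM in control replicates 1, 2 and 3 and 5.20, 5.68 and 24.3 CPM in Cer replicates 1, 2 and 3, with replicate 3 the highest library of each group. It was named after its values were seen. Replicate 3 was the highest library of both groups in 3 of the 9 rows and not in the other 6. These counts are too few for a test of the kind used for the other rows.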
